A study of Mus musculus with 5 samples.

Results

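The transforming growth factor β (TGF-β) genes described here are the 3 ligands *Tgfb1*, *Tgfb2* and *Tgfb3*, the receptors *Tgfbr1*, *Tgfbr2* and *Tgfbr3*, the signal transducers *Smad2* and *Smad3*, and the inhibitors *Smad7* and *Skil*. They were taken by name from the deposited expression table, which lists 21835 genes, and all 10 were present and high enough to be tested. Bulk RNA sequencing had been performed on murine lung cancer-associated fibroblasts (CAFs), the fibroblasts of tumor tissue, here kept in culture. CAF-vec, labelled as the wild-type control, carried the empty vector (2 samples), and CAF-200 carried a lentiviral vector for the cluster that holds miR-200a, miR-200b and miR-429 (3 samples). Both groups grew in alpha-MEM with serum, and the labels name no added TGF-β. CAF-200 cells had been infected with lentivirus and then kept under G418 for over 2 weeks, so each CAF-200 culture was a selected population with stable overexpression. The paper describes CAF-vec as vector-transduced and does not say whether it was selected. The labels do not say whether the samples of a group were separate transductions or cultures. The methods name LFs (normal lung fibroblasts) in the line on lentiviral infection but CAFs in that on RNA sequencing, as the labels do, and the labels were followed here. The *p* values measure the spread between these samples, which may be technical.

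TGF-β ligands are secreted in a latent form bound to matrix proteins, and once released they bind the type II receptor, which recruits and phosphorylates the type I receptor. The type I receptor phosphorylates SMAD2 and SMAD3, which join SMAD4 and enter the nucleus, and SMAD7 and the SKI-family repressor encoded by *Skil* limit the response. In fibroblasts this pathway is known for driving contractile and matrix genes, and CAFs are both a source and a target of the ligands.

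Values were in CPM, the reads assigned to a gene relative to all reads of its sample, scaled so that every sample has nearly the same total. Depth per sample is unknown, because the CPM values could not be turned back into whole reads. Fold-changes are differences of log2(CPM + 0.5), CAF-200 minus CAF-vec, and understate the change of low genes. The groups were compared with limma, with Benjamini-Hochberg correction of its *p* values across the 12175 genes tested, and a gene is said to have risen or fallen where its adjusted *p* was under 0.01. The spread between replicates was wider in CAF-vec, where the log2 difference of the pair had an SD over genes of 0.49, than between pairs of CAF-200 samples, where it was 0.19 to 0.20. Fibroblast markers summed to between 7457 and 14148 CPM in CAF-vec and to between 6609 and 7302 CPM in CAF-200, so each CAF-200 sum was under both CAF-vec sums, and 9 of these 10 genes were high enough to be tested, the exception being *Fap*, which was under 0.5 CPM in every sample. Of the 9, 3 (*Thy1*, *Lum* and *Dcn*) rose and 0 fell in CAF-200, against 4.45% of all tested genes that rose and 5.57% that fell. The median log2 fold-change of the 9 was -0.20. At an unadjusted *p* under 0.05, 4 were higher and 2 lower, against 2110 higher and 3359 lower of all 12175 tested genes (limma). *Col1a1*, *Col1a2*, *Vim*, *Pdgfrb* and *Pdgfra* had log2 fold-changes of -0.91, -0.75, -0.39, -0.25 and -0.20 and *Col3a1* one of 1.02, none of which passed the test. The 8 epithelial markers summed to at most 0.452 CPM and the 6 endothelial markers to at most 1.06 CPM in any sample. Leukocyte markers summed to 7.23 and 7.32 CPM in CAF-vec and to between 4.72 and 5.93 CPM in CAF-200, with *Ptprc* near 0 and 3 of the 6 at 0 throughout. Pericyte and muscle markers, among them *Rgs5* and *Myh11*, summed to 8.63 and 11.9 CPM in CAF-vec and to between 7.54 and 7.97 CPM in CAF-200. The part of these marker levels in the results was not tested. In bulk RNA, fewer cells of a type and less RNA per cell cannot be told apart.

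The overexpressed miRNAs have 2 seeds between them, and both are shown because they decide which 3′-UTR letters were searched. The mature sequences below are from RefSeq (GRCm38.p6), the precursors lie on the minus strand of chromosome 4, and the seed, bases 2 to 8, is in capitals.
miR-200a-3p: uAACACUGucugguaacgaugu
miR-200b-3p: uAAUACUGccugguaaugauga
miR-429-3p: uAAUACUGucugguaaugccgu
miR-200b and miR-429 shared a seed, and miR-200a differed from them at 1 base of it. No row of the expression table was found for the 3 miRNA genes, so the miRNAs themselves were not measured here, the group labels could not be checked against them, and every direction given rests on the labels. *Zeb1* and *Zeb2*, known targets of the family, had log2 fold-changes of -0.36 (limma, adjusted *p* = 0.0504) and -0.23 (limma, adjusted *p* = 0.374).

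The letters CAGTGTT, the match to the miR-200a seed, were found in the longest annotated 3′-UTR of *Tgfb2*, *Tgfbr1*, *Tgfbr2*, *Tgfbr3* and *Smad2*. CAGTATT, which matches the seed shared by miR-200b and miR-429, was found in *Smad2* and *Smad7*. Only the transcript strand was searched, and the 2 motifs, in which the first letter is the only C, cannot overlap. The sites of the ligand and receptors are printed with their surroundings, in the direction of the transcript, with the match in capitals and positions counted from the first base after the stop codon.
*Tgfb2*, position 106: ttttgattcatCAGTGTTtaaaaaaaaaa
*Tgfb2*, position 1386: tttgagctccaCAGTGTTtcagccttttc
*Tgfbr1*, position 1050: tttgatcaaagCAGTGTTttgttttgttt
*Tgfbr2*, position 2621: ttcaatctatgCAGTGTTtgtcttttata
*Tgfbr3*, position 1094: cagtgactcttCAGTGTTaaaactgaacc
*Tgfbr3*, position 2217: agctcttgttaCAGTGTTtctgactgctt
On GRCm38 the *Tgfb2* matches are chr1:186625336-186625342 and chr1:186624056-186624062 on the minus strand, and that of *Tgfbr1* is chr4:47411827-47411833 on the plus strand. That of *Tgfbr2* is chr9:116087751-116087757, and those of *Tgfbr3* are chr5:107108539-107108545 and chr5:107107416-107107422, all on the minus strand. The match of *Tgfbr3* at position 1094 was followed by an A, the base that Argonaute is known to prefer across from the first base of the miRNA.

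Of the 10 genes, 6 (60%) held 1 or both matches, against 30.3% of 12060 tested genes with an annotated 3′-UTR, of which 20.9% held CAGTGTT and 15.7% CAGTATT. Their 3′-UTRs were longer, with a median of 3282 bases against 1174, and this share is a description of the letters only. *Smad2* had the longest, 6233 bases, with 3 matches, and *Tgfb1* the shortest, 135 bases, with none. *Tgfb3*, *Smad3* and *Skil*, with 3′-UTRs of 1035, 3495 and 3964 bases, had none either. Of the 6 genes with a match, *Tgfb2* fell, *Tgfbr1* and *Smad7* rose, and *Tgfbr2*, *Tgfbr3* and *Smad2* did not pass the test. Of the 4 without, *Tgfb3* fell and the other 3 did not pass. Over all tested genes, 5.57% fell and 4.45% rose. Over all tested genes the median log2 fold-change was -0.07 with either match and -0.11 without. Searching every annotated 3′-UTR of a gene in place of the longest gave the same 6 genes.

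**Figure D1:**
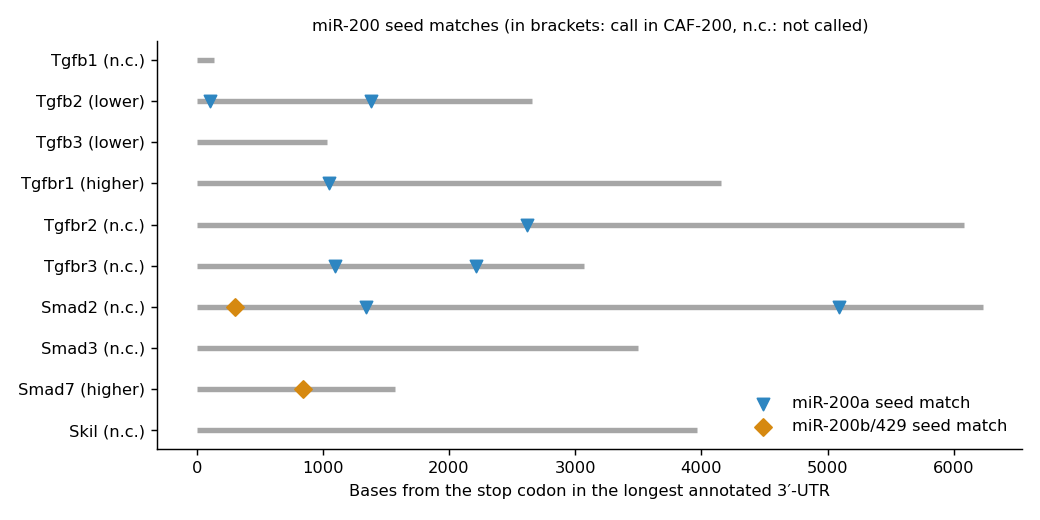
Seed matches in the longest annotated 3′-UTR of each gene, drawn as a grey line to scale in bases from the stop codon, with miR-200a matches as triangles and matches to miR-200b and miR-429 as diamonds. The 2 matches of *Tgfb2* and the 2 of *Tgfbr3* are all of the miR-200a kind, the 3′-UTR of *Smad2* holds both kinds, and 4 genes have none.

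The first question was whether overexpression of miR-200 went with a change in the ligands that CAFs make. *Tgfb2* and *Tgfb3* fell in CAF-200, whereas *Tgfb1* was higher in every CAF-200 sample without passing the test. *Tgfb2* (ENSMUSG00000039239, chr1:186622792-186705989, minus strand), which encodes TGF-β2, was at 23.9 and 22.5 CPM in CAF-vec and at 8.70, 9.45 and 7.89 CPM in CAF-200. The highest CAF-200 value was less than the lowest CAF-vec value, and the mean was 62.6% lower, at 8.68 ± 0.778 CPM (SD, n = 3) against 23.2 ± 0.990 CPM (SD, n = 2). Its log2 fold-change was -1.37 (standard error 0.110, 95% interval -1.65 to -1.10, adjusted *p* = 0.00254, limma), and 1.17% of all genes tested had a lower one.

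*Tgfb3* (ENSMUSG00000021253, chr12:86056745-86079041, minus strand), the gene for TGF-β3, had 36.1 and 44.1 CPM in CAF-vec and 24.3, 25.3 and 24.4 CPM in CAF-200. The CAF-200 samples were nearly equal and all under the CAF-vec samples, which were further apart. The mean was 38.5% lower, with a log2 fold-change of -0.68 (standard error 0.111, 95% interval -0.96 to -0.41, adjusted *p* = 0.00991, limma). This call lay at the threshold and was lost, with adjusted *p* values from 0.0101 to 0.0244, under a pseudocount of 1, other filters, quantile or median scaling of the samples, or no variance trend, while the log2 fold-change stayed between -0.68 and -0.59.

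*Tgfb1* (ENSMUSG00000002603, chr7:25687002-25705077, plus strand) encodes TGF-β1, the ligand best known for activating fibroblasts. It was at 19.8 and 17.9 CPM in CAF-vec and at 28.7, 24.7 and 31.8 CPM in CAF-200, so the groups did not overlap and the CAF-200 samples were the more spread. The mean was 1.51-fold as high in CAF-200, and the log2 fold-change was 0.57 (standard error 0.131, 95% interval 0.25 to 0.90, adjusted *p* = 0.0248, limma). Without CAF-vec 1 the log2 fold-change was 0.65 and without CAF-vec 2 it was 0.50, each resting on a lone CAF-vec sample. Without any 1 CAF-200 sample the adjusted *p* was 0.0507 to 0.0967 (limma).

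Divided by the summed length of its exons, *Tgfb3* was the most abundant of the ligand transcripts, at 11.9 ± 1.66 CPM per kilobase in CAF-vec (SD, n = 2) and 7.29 ± 0.157 in CAF-200 (SD, n = 3). *Tgfb2* and *Tgfb1* were at 4.01 and 3.74 CPM per kilobase in CAF-vec, with overlapping ranges, and at 1.499 and 5.64 in CAF-200. With the longest transcript as length they were apart in CAF-vec too, at 4.54 and 7.32 CPM per kilobase. The sum of the 3 ligands per kilobase was 19.6 in CAF-vec and 14.4 in CAF-200. As shares of that sum, *Tgfb1* was 20.97% and 17.3% in CAF-vec and 39.6%, 35.0% and 42.3% in CAF-200. *Tgfb2* was 22.1% and 19.0% in CAF-vec and 10.4%, 11.6% and 9.15% in CAF-200. *Tgfb3* was 57.0% and 63.7% in CAF-vec and 49.9%, 53.4% and 48.5% in CAF-200. No share overlapped between the groups, which for *Tgfb1* follows from the values of the single genes. The length used mattered for the order, since with the longest transcript *Tgfb1* rather than *Tgfb3* was the most abundant ligand in CAF-200, at 55.0% against 36.5%.

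**Figure D2:**
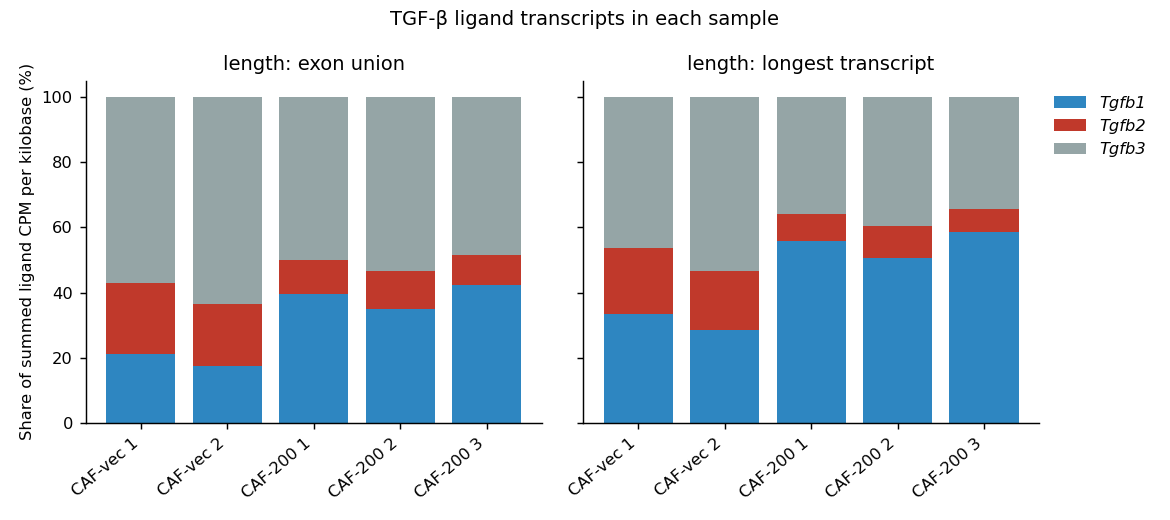
Share of each TGF-β ligand in the summed ligand CPM per kilobase (y axis, percent) in each sample, with the length taken as the union of exons (left) or as the longest transcript (right). The *Tgfb1* share is larger and the *Tgfb2* share smaller in each CAF-200 sample than in either CAF-vec sample with both lengths.

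Ratios within a sample do not depend on the scaling of that sample, and 5 pairs were compared. The log2 ratio of *Tgfb2* to *Tgfb1* was 0.27 and 0.33 in CAF-vec and -1.72, -1.39 and -2.01 in CAF-200, a 4.03-fold drop. That of *Tgfb3* to *Tgfb1* was 0.87 and 1.30 in CAF-vec and -0.24, 0.03 and -0.38 in CAF-200, a 2.43-fold drop. That of *Tgfb2* to *Tgfb3* was -0.59 and -0.97 in CAF-vec and -1.48, -1.42 and -1.63 in CAF-200, a 1.66-fold drop. The groups did not overlap for any of these. For the ratios to *Tgfb1* this had to be so, since *Tgfb1* was higher and the other ligands lower in every CAF-200 sample. An exact two-sided permutation test gave *p* = 0.2 for each pair (0.2 after Benjamini-Hochberg adjustment over the 5 pairs), the smallest value that 2 against 3 samples allow when the one-sided value is doubled, as was done here.

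Of the receptors, *Tgfbr1* rose in CAF-200, whereas *Tgfbr2* and *Tgfbr3* had lower values in each CAF-200 sample without passing the test. *Tgfbr1* (ENSMUSG00000007613, chr4:47353222-47414931, plus strand), the type I receptor kinase that phosphorylates SMAD2 and SMAD3, had 7.60 and 7.47 CPM in CAF-vec and 13.3, 13.0 and 14.4 CPM in CAF-200. Samples of 1 group were close to each other, and the mean was 1.80-fold as high in CAF-200, at 13.6 ± 0.747 CPM (SD, n = 3) against 7.53 ± 0.0928 CPM (SD, n = 2). Its log2 fold-change was 0.81 (standard error 0.0968, 95% interval 0.57 to 1.05, adjusted *p* = 0.00505, limma).

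*Tgfbr2* (ENSMUSG00000032440, chr9:116084293-116175360, minus strand) encodes the type II receptor, which binds the ligand first. It was at 60.1 and 52.5 CPM in CAF-vec and at 43.2, 44.2 and 42.2 CPM in CAF-200, all under the CAF-vec values, with a log2 fold-change of -0.38 (standard error 0.0944, 95% interval -0.61 to -0.14, adjusted *p* = 0.0327, limma). Without CAF-vec 2 the log2 fold-change was -0.47 and without CAF-vec 1 it was -0.28, each resting on a lone CAF-vec sample. Without any 1 CAF-200 sample the adjusted *p* was 0.117 to 0.140 (limma). *Tgfbr3* (ENSMUSG00000029287, chr5:107106570-107289629, minus strand) encodes betaglycan, the co-receptor that presents ligand, TGF-β2 in particular, to the type II receptor. It was at 96.7 and 92.0 CPM in CAF-vec and at 79.4, 84.6 and 71.8 CPM in CAF-200, and the log2 fold-change was -0.27 (standard error 0.102, 95% interval -0.52 to -0.01, adjusted *p* = 0.0978, limma). Its groups were apart by less than the range of the CAF-200 samples.

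Per kilobase, *Tgfbr3* was the most and *Tgfbr1* the least abundant receptor in both groups, at 14.4 and 1.15 CPM per kilobase in CAF-vec and 12.0 and 2.08 in CAF-200. *Tgfbr2* lay between, at 6.88 in CAF-vec and 5.28 in CAF-200. The log2 ratio of *Tgfbr1* to *Tgfbr2*, on CPM, was -2.98 and -2.81 in CAF-vec and -1.70, -1.76 and -1.55 in CAF-200. This was a 2.34-fold increase of the ratio without overlap (exact permutation *p* = 0.2, two-sided, the smallest possible). Overlap was not possible, since *Tgfbr1* was higher and *Tgfbr2* lower in every CAF-200 sample.

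The receptor-regulated SMADs did not pass the test, and neither had an unadjusted *p* under 0.05 (limma). *Smad2* (ENSMUSG00000024563, chr18:76241580-76310963, plus strand) was at 69.9 and 68.9 CPM in CAF-vec and at 67.1, 68.6 and 66.1 CPM in CAF-200. All 5 values lay close together, and the log2 fold-change of -0.04 had a 95% interval of -0.24 to 0.15 (standard error 0.0779, adjusted *p* = 0.682, limma), with the sign turning to 0.06 under quantile normalization and 0.05 under median centring. *Smad3* (ENSMUSG00000032402, chr9:63646767-63757994, minus strand) was at 38.8 and 34.5 CPM in CAF-vec and at 32.4, 31.1 and 32.0 CPM in CAF-200, and the log2 fold-change was -0.20 (standard error 0.0918, 95% interval -0.43 to 0.03, adjusted *p* = 0.149, limma). The gap between its groups was smaller than the difference between the CAF-vec samples. Its log2 fold-change was -0.11 without CAF-vec 1 and -0.28 without CAF-vec 2, each resting on a lone CAF-vec sample.

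Of the inhibitors, *Smad7* rose. *Smad7* (ENSMUSG00000025880, chr18:75367529-75395935, plus strand) encodes the inhibitory SMAD that binds the type I receptor and is itself a known target of the pathway. It was at 35.8 and 41.7 CPM in CAF-vec and at 80.4, 92.8 and 89.5 CPM in CAF-200, so that each CAF-200 value lay far above both CAF-vec values. The mean was 2.26-fold as high, at 87.6 ± 6.42 CPM (SD, n = 3) against 38.7 ± 4.17 CPM (SD, n = 2), with a log2 fold-change of 1.17 (standard error 0.112, 95% interval 0.89 to 1.45, adjusted *p* = 0.00321, limma). *Skil* (ENSMUSG00000027660, chr3:31095058-31122577, plus strand) encodes SnoN, a repressor of SMAD-dependent transcription that is also induced by the pathway. It was at 12.5 and 12.2 CPM in CAF-vec and at 17.3, 17.3 and 20.1 CPM in CAF-200, without overlap, with a log2 fold-change of 0.55 (standard error 0.107, 95% interval 0.28 to 0.81, adjusted *p* = 0.0162, limma). Without CAF-vec 1 its log2 fold-change was 0.56 and without CAF-vec 2 it was 0.53, each resting on a lone CAF-vec sample. Without any 1 CAF-200 sample its adjusted *p* was 0.0643 to 0.0747 (limma). The log2 ratio of *Smad7* to *Smad3* went from -0.12 and 0.27 in CAF-vec to 1.31, 1.58 and 1.49 in CAF-200. This was a 2.60-fold increase of the ratio (exact permutation *p* = 0.2, two-sided, the smallest possible). Here too overlap was not possible, since *Smad7* was higher and *Smad3* lower in every CAF-200 sample.

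**Figure D3:**
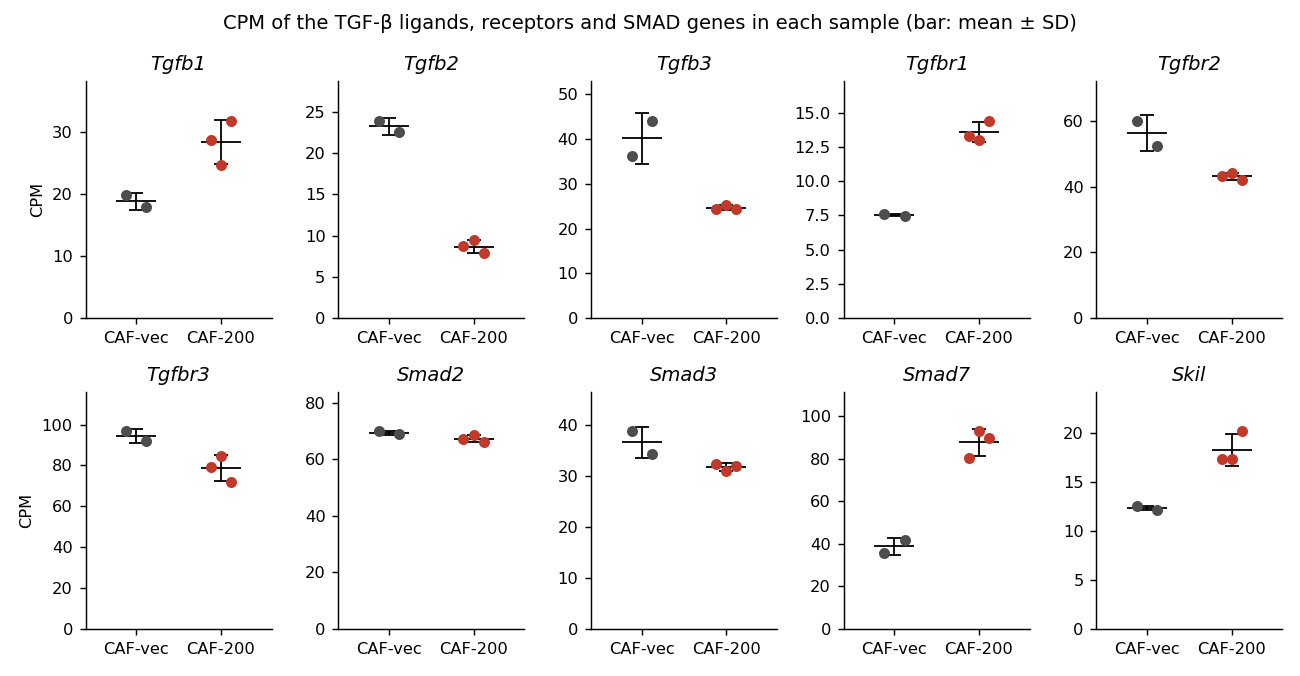
CPM of the 10 genes in each sample (y axis, linear from 0, own scale per panel), with CAF-vec in grey and CAF-200 in red, a bar at the group mean and whiskers of 1 SD. The groups do not overlap in any panel, and the gap is widest relative to the spread for *Tgfb2*, *Tgfbr1* and *Smad7*, while the 5 *Smad2* values lie close together.

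Of the 10 genes, 2 fell and 2 rose, against a background of 5.57% of all tested genes that fell (678 genes) and 4.45% that rose (542 genes). With each sample centred on its median, the background split was 543 lower and 720 higher. Values of the groups did not overlap for 10 of 10 genes, against 61.6% of all tested genes. The median log2 fold-change of the 10 was -0.12, and that of all tested genes was -0.09, with 6 of the 10 below 0 and 4 above. Past a log2 fold-change of 1 in size were *Tgfb2* and *Smad7*. Leaving out any 1 CAF-200 sample (1, 2 or 3) ended each of the 4 calls: the adjusted *p* then lay between 0.0222 and 0.0256 for *Tgfb2*, 0.0225 and 0.0311 for *Smad7*, 0.0367 and 0.0407 for *Tgfbr1*, and 0.0534 and 0.0601 for *Tgfb3* (limma), while at most 1 gene of the whole table passed. Their log2 fold-changes without any 1 of the 5 samples were, in the same order, -1.43 to -1.31, 1.06 to 1.28, 0.76 to 0.84 and -0.82 to -0.54.

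**Figure D4:**
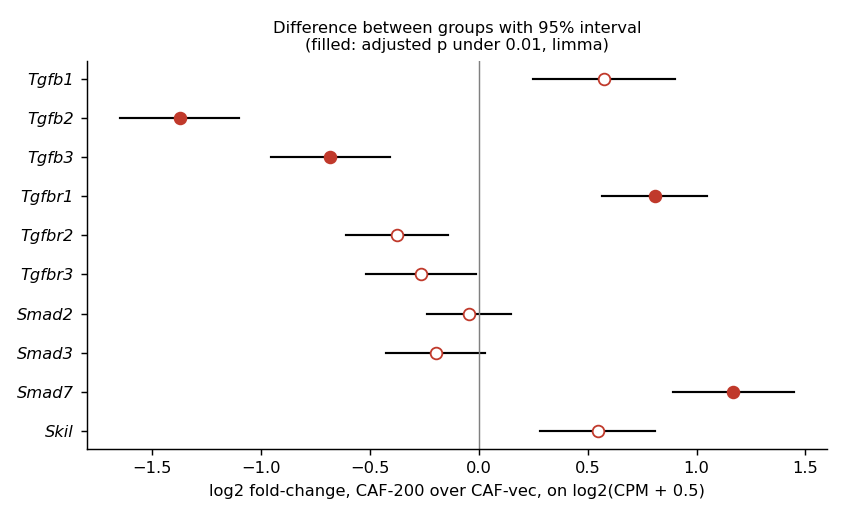
Log2 fold-change of each gene, CAF-200 over CAF-vec, on log2(CPM + 0.5) (x axis), with the 95% interval from limma as a line and filled points at an adjusted *p* under 0.01. Intervals of *Tgfb2*, *Tgfb3*, *Tgfbr2* and *Tgfbr3* lie below 0, those of *Tgfb1*, *Tgfbr1*, *Smad7* and *Skil* above 0, and those of *Smad2* and *Smad3* include 0.

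Across the 10 genes, the order of the levels per kilobase of exon changed between the groups. In CAF-vec it ran *Tgfbr3*, *Tgfb3*, *Smad7*, *Smad2*, *Tgfbr2*, *Smad3*, *Tgfb2*, *Tgfb1*, *Skil* and *Tgfbr1*, from 14.4 to 1.15 CPM per kilobase. The ranges of the neighbours *Smad7* and *Smad2*, *Tgfbr2* and *Smad3*, and *Tgfb2* and *Tgfb1* overlapped, so their order is not resolved. In CAF-200 *Smad7* was first, at 19.4 CPM per kilobase against 8.57 in CAF-vec, and *Tgfb2* was last, at 1.499. There the ranges of *Smad3* and *Tgfb1*, of *Tgfb1* and *Tgfbr2*, and of *Tgfbr1* and *Skil* overlapped. The place of *Tgfb1* depends on the length, since with the longest transcript it moved from place 8 to 5 in CAF-vec, at 7.32 CPM per kilobase, and from 6 to 3 in CAF-200, at 11.04, while *Tgfbr3* in CAF-vec and *Smad7* in CAF-200 stayed first.

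Other genes of the pathway were described by 6 lists, which together held 75 genes, 71 of them tested. Of these, 5 fell and 10 rose, 21.1% in all, and the median log2 fold-change was 0.10. The lists were written with earlier results of these data known, so this share is a description only. Over all tested genes 10.02% were called, 5.57% lower and 4.45% higher, with a median of -0.09. At an unadjusted *p* under 0.05, 3359 of the 12175 tested genes were lower and 2110 higher (limma). The counts of each list stand against that background. The other SMADs gave no call among 5 genes in limma, with 0 lower and 2 higher at an unadjusted *p* under 0.05. *Smad4*, the common partner of SMAD2 and SMAD3, was at 138 and 92.5 CPM in CAF-vec and at 89.5, 76.9 and 83.0 CPM in CAF-200 (limma, log2 fold-change -0.44 at adjusted *p* = 0.116).

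Of 16 genes for latency and activation of the ligands, 1 fell and 2 rose, with a median log2 fold-change of -0.34. *Mmp14*, a membrane-bound protease that can release latent TGF-β, was at 417 and 453 CPM in CAF-vec and at 227, 222 and 224 CPM in CAF-200 (limma, log2 fold-change -0.95 at adjusted *p* = 0.00318). *Ltbp2*, a matrix protein of the latent TGF-β binding family that does not itself bind the latent ligand, rose by 1.08 log2 units (limma, adjusted *p* = 0.00881). *Lrrc32*, which encodes GARP, a cell-surface anchor of latent TGF-β, was at 139 and 163 CPM in CAF-vec and at 289, 281 and 288 CPM in CAF-200 (limma, log2 fold-change 0.92 at adjusted *p* = 0.00434). Among 6 accessory receptors tested, 1 fell and 0 rose (3 and 0 at an unadjusted *p* under 0.05, limma), with a median of -0.34. It was *Nrp2*, a co-receptor for several growth factors, at 92.8 and 91.2 CPM in CAF-vec and 52.2, 51.4 and 50.8 CPM in CAF-200 (limma, log2 fold-change -0.83 at adjusted *p* = 0.00305).

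Of 9 negative regulators, 1 fell and 1 rose, with a median log2 fold-change of 0.16. *Ski*, the repressor related to *Skil*, was at 81.7 and 80.6 CPM in CAF-vec and at 50.2, 48.6 and 48.0 CPM in CAF-200 (limma, log2 fold-change -0.72 at adjusted *p* = 0.00403), opposite in sign to *Skil*. *Dcn*, the matrix proteoglycan decorin that can bind TGF-β and is also a fibroblast marker, was at 7.67 and 8.18 CPM in CAF-vec and at 51.0, 61.5 and 56.7 CPM in CAF-200 (limma, log2 fold-change 2.75 at adjusted *p* = 0.000837). Of 10 genes of the activin branch tested, 1 fell and 0 rose (4 and 2 at an unadjusted *p* under 0.05, limma), with a median of -0.05. *Inha*, the inhibin α subunit, fell by 0.88 log2 units (limma, adjusted *p* = 0.00812).

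Of 25 genes known to be induced by TGF-β in fibroblasts or other cells, 1 fell and 7 rose, with a median log2 fold-change of 0.45. At an unadjusted *p* under 0.05, 4 were lower and 15 higher (limma), against 3359 lower and 2110 higher of all tested genes. The matrix-related genes *Col1a1*, *Lox*, *Col1a2* and *Timp3* had log2 fold-changes of -0.91, -0.77, -0.75 and -0.57, and none of them passed the test. *Acta2*, which encodes α-smooth muscle actin, was at 92.8 and 126 CPM in CAF-vec and at 661, 653 and 706 CPM in CAF-200 (limma, log2 fold-change 2.63 at adjusted *p* = 0.00123). Each CAF-200 value was far above both CAF-vec values. *Timp1*, a metalloproteinase inhibitor, rose by 3.07 log2 units (limma, adjusted *p* = 0.00096). The contractile genes *Tagln* and *Cnn1* rose by 2.94 (limma, adjusted *p* = 0.00182) and 2.79 log2 units (limma, adjusted *p* = 0.000929). Exons of *Tagln* overlap *Pcsk7*, those of *Junb* overlap *Prdx2* and those of *Ltbp2* an antisense transcript, each on the opposite strand, and whether counting used the strand is not stated. The other 3 that rose, *Tgfbi*, *Adam12* and *Junb*, had log2 fold-changes of 2.56, 1.39 and 0.78 and are named after their values were seen. *Cdkn2b*, which encodes the cell-cycle inhibitor p15, fell by 1.198 log2 units (limma, adjusted *p* = 0.0057). *Ccn2*, among the best-known targets, was at 696 and 553 CPM in CAF-vec and at 739, 685 and 821 CPM in CAF-200, so its groups overlapped (limma, log2 fold-change 0.27 at adjusted *p* = 0.214). *Acta2*, *Tagln* and *Cnn1* are also genes of smooth muscle, and of the 6 pericyte and muscle markers *Kcnj8* was at 0, *Rgs5* and *Myh11* were under 0.5 CPM in every sample, and *Des*, *Cspg4* and *Notch3* reached 0.760, 5.28 and 6.10 CPM. The part of such cells in the result was not tested. Without any 1 CAF-200 sample, none of the 71 genes passed. Each time, 14 lower and 19 higher genes had an unadjusted *p* under 0.05 (limma). Over all tested genes, 2316 to 2552 were lower and 1505 to 1558 higher at that *p* in these fits (limma). Counts without 1 CAF-vec sample are left out, since they would rest on a lone CAF-vec sample.

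**Figure D5:**
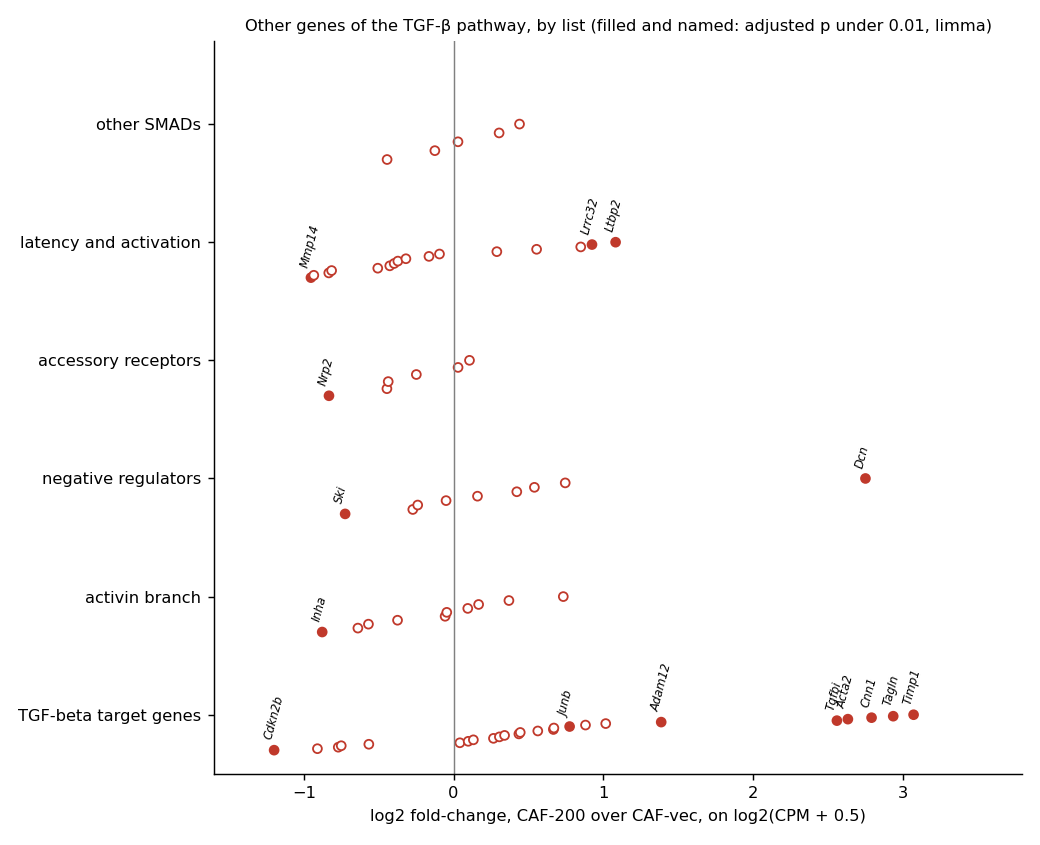
Log2 fold-change, CAF-200 over CAF-vec, on log2(CPM + 0.5) (x axis), of the tested genes of each pathway list (rows, 1 point per gene, spread vertically by rank), with filled and named points at an adjusted *p* under 0.01 (limma). The target genes extend furthest to the right, up to 3.07 for *Timp1*, and *Cdkn2b* is the lowest of all points at -1.198.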

How the data were processed

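Stranded mRNA libraries of 2 CAF-vec and 3 CAF-200 samples were sequenced. The submitters' processing notes name FastQC, cutadapt, Trimmomatic, STAR, RSEM and edgeR, and the builds GRCm38 and mm10. The authors deposited 1 table of CPM values whose name refers to TMM scaling, with columns summing to between 999956 and 1000111 CPM. Between 27.5% and 85.0% of low values were whole reads (within 0.05), so no count test was run. All 5 sample columns were used. The sources differ on some details: the methods describe triplicates, a hygromycin vector introduced into LFs (though RNA of CAFs) and another RNA kit, and the labels were followed.

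Genes reaching 0.5 CPM in 2 or more samples entered the test with limma 3.58.1 in R 4.3.3 (variance trend) on log2(CPM + 0.5). On simulated data of 12175 genes with 200 changed by 1.5 (log2), a median of 90.5% were recovered over 20 runs, with at most 6 false calls. Each simulated gene had the same SD in both groups, unlike the real samples, where CAF-vec was the more spread. The change put in was also larger than that of any of the 10 genes. The run therefore checks the procedure and does not give the error rates of this comparison. Names, exons and 3′-UTRs came from GENCODE M21 (GRCm38), which named 21795 of 21835 identifiers. Exons of the 10 genes overlap no other gene of the table. Exons of *Tgfb2* and *Tgfb3* overlap annotated genes on the opposite strand, and those of *Tgfbr3* a gene on the same strand, that are absent from it. Genes of the other lists are named where their adjusted *p* was under 0.01, up to 4 per direction and list, beside *Smad4*, *Ccn2*, *Acta2*, *Zeb1* and *Zeb2*. Named after their values were seen were further target genes that rose (*Tgfbi*, *Adam12*, *Junb*) or had lower values (*Col1a1*, *Lox*, *Col1a2*, *Timp3*), and the cell type markers. The genes and lists were chosen with earlier results of these data known, and 1 gene of the lists is not reported here and not counted. Alternatives were other pseudocounts, filters, scalings and thresholds, no variance trend, each sample left out, a replicate block and the longest transcript as length. Tables were handled in Python 3.11.15 (numpy 2.4.6 and pandas 2.3.3), exact tests used SciPy 1.17.1, and plots used matplotlib 3.10.9.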

Additional observations from a re-analysis of the deposited data

How the results depend on the processing

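The 10 genes kept the sign of their log2 fold-change under every alternative run except *Smad2* (0.058 with quantile normalization, 0.052 with median centring). Quantile normalization and median centring moved the median of all genes from -0.09 to -0.02 and 0.0027. Instead of 2, 1 of the 10 genes was lower with a pseudocount of 1, with no filter, with at least 1 CPM in every sample, with either scaling, without the variance trend, and with a log2 fold-change beyond 1 required as well, where 1 was higher. The gene lost was *Tgfb3* (log2 fold-change -0.67 with a pseudocount of 1, -0.68 with the other filters or without the trend, and -0.59 with either scaling). At an adjusted *p* under 0.05, 3 of the 10 were lower and 4 higher, 14 other pathway genes lower and 19 higher, and 2265 of all genes lower and 1446 higher. With no filter, 3 other pathway genes were lower, and 376 of all genes were lower and 347 higher.

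The shared replicate numbers are not stated to pair the samples (2 pairs, with correlations of deviations of 0.25 and 0.13). With a replicate block, in which CAF-200 3 has no partner, 0 of the 10 genes were lower and 0 higher (2 and 4 at an unadjusted *p* under 0.05, limma), 0 other pathway genes were lower (15 unadjusted) and 7 higher, and 70 of all genes were lower and 101 higher. At an unadjusted *p* under 0.05, 2480 of all genes were lower and 1574 higher in this fit (limma). The blocked log2 fold-changes were -1.31 for *Tgfb2*, -0.68 for *Tgfb3*, 0.76 for *Tgfbr1* and 1.15 for *Smad7*.

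Leaving out 1 sample at a time, 0 to 3 of the 10 genes were lower and 0 to 4 higher, 0 to 23 other pathway genes lower and 0 to 24 higher, and 0 to 3766 of all genes lower and 0 to 2307 higher. All the counts of 0 came without a CAF-200 sample, where 3 lower and 4 higher of the 10 had an unadjusted *p* under 0.05 (limma). A lone CAF-vec sample was assumed to vary like CAF-200. Log2 fold-changes ranged from -1.43 to -1.31 for *Tgfb2*, -0.82 to -0.54 for *Tgfb3*, 0.76 to 0.84 for *Tgfbr1*, 1.06 to 1.28 for *Smad7*, 0.49 to 0.67 for *Tgfb1*, -0.47 to -0.28 for *Tgfbr2* and 0.47 to 0.58 for *Skil*. Differences in log2 ratio ranged from -0.92 to -0.54 for *Tgfb2* to *Tgfb3* and from 1.18 to 1.58 for *Smad7* to *Smad3*. These omissions for the ratios, and the ligand shares by longest transcript, were added after seeing the data.

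With the longest transcript as length, CAF-vec levels in CPM per kilobase were 7.32 for *Tgfb1*, 4.54 for *Tgfb2*, 1.31 for *Tgfbr1*, 15.5 for *Tgfbr3*, 8.58 for *Smad2*, 7.20 for *Smad3* and 1.84 for *Skil*. Count tests (edgeR, DESeq2) were not run because whole reads were not recovered, so the depth behind low genes such as *Tgfbr1* is unknown. The causes of these changes were not tested.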
